A study of Homo sapiens with 3 samples.

Results

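The transcripts described here are those of ACTB and ACTG1, which encode the cytoplasmic actins, and of 7 proteins that act on actin: CFL1, PFN1, TMSB4X, TMSB10, LCP1, CORO1A and MYH9. They were chosen by gene name in 3 deposited lists of A-to-G positions. All 9 genes were present in each list. They held 359 of the 16820 positions listed anywhere. CAP1, another actin-binding protein gene, was left out because of the chromosome 1 stretch it lies in.

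The lists come from a HyperTRIBE experiment in THP-1, a cell line from a human monocytic leukemia. In HyperTRIBE an RNA-binding protein is fused to a hyperactive deaminase domain of ADAR, which turns adenosine into inosine, read as G, in RNA near the protein. There was 1 library in each of 3 groups, all transduced with pGK-GFP retrovirus made in 293T cells and harvested for total RNA at day 7: no transgene (empty), the hyperactive ADAR domain without a partner (ADARcd alone), and DDX41, a DEAD-box RNA helicase, fused to that domain (DDX41-ADARcd). With 1 library per group no replicate error exists, so every comparison below is between the reads of single libraries. The labels do not say how much of each protein the cells made. Of 15 myeloid marker genes 13 had a listed position, LYZ, SPI1 and CTSG among them, and CD33 and MPO had none. None of the T-cell, B-cell, erythroid, epithelial or fibroblast markers was listed, and a gene with no listed position has no value.

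Actin cycles between monomers and filaments. Profilin (PFN1) exchanges the nucleotide of actin monomers and feeds them to growing ends, cofilin (CFL1) severs and disassembles old filaments, and the thymosins (TMSB4X, TMSB10) hold monomers in reserve. L-plastin (LCP1) bundles filaments in leukocytes, coronin-1A (CORO1A) binds filaments and the Arp2/3 complex there, and MYH9 is the heavy chain of non-muscle myosin IIA, the motor that pulls on filaments. These proteins drive the migration and phagocytosis of monocytic cells, and their mRNAs are abundant in them.

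Positions with the most edited reads are shown first, since the results turn on them. Each line gives 21 bases of the mRNA (GENCODE 29, GRCh38), 5′ to 3′, with the edited A in capitals. All 6 of these genes are transcribed from the minus strand. Coding bases are counted from the A of the start codon as 1. At coding bases 1075 and 1076 of ACTB, 2 adjacent A had edited reads.
PFN1 coding base 314, chr17:4946629-4946649: actgtcaccaAgactgacaag
ACTB coding bases 1075 and 1076, chr7:5527791-5527811: gtggatcagcAAgcaggagta
ACTB coding base 713, chr7:5528360-5528380: tccctggagaAgagctacgag
ACTB 3′ UTR, chr7:5527420-5527440: cttctctctaAggagaatggc
ACTB 3′ UTR, chr7:5527214-5527234: tctccctgggAgtgggtggag
ACTG1 coding base 53, chr17:81512292-81512312: ggcatgtgcaAagctggtttt
ACTG1 3′ UTR, chr17:81510563-81510583: gccttcgaaaAgaaattgtcc
LCP1 coding base 698, chr13:46152811-46152831: caagtcatcaAgattgggttg
MYH9 3′ UTR, chr22:36281771-36281791: tgtctactctAggactgggcc
CFL1 coding base 137, chr11:65856099-65856119: gacaagaagaAcatcatcctg

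ADARcd alone had 235 positions in these genes among 6413 in all, DDX41-ADARcd against empty had 149 of 3516, and DDX41-ADARcd against ADARcd alone had 124 of 10407. Each listed position had 1 or more edited reads in its first library, and 0 edited reads and at least 10 reads in its control. The filters behind the lists are not stated. Editing levels are percentages of reads showing G in place of the A of the transcript, and intervals are exact Clopper-Pearson 95% intervals. Intervals, and floors of 3 reads of the depth where a count is 0, reflect counting error only, and copies made by PCR count as separate reads. No library totals are given, and depth is therefore stated position by position. All member positions lay within the named gene.

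No position in these genes was called by Fisher's exact test (two-sided, at each position, Benjamini-Hochberg adjustment over the whole list, threshold 0.05). This held for ADARcd alone against empty (0 of 235 called, against 0.203% of all tested positions), and for DDX41-ADARcd against empty (0 of 149, against 0.0%). It also held for DDX41-ADARcd against ADARcd alone, with 0 higher (0.0% of all tested positions) and 0 lower (0.282%). The 124 member positions listed there had 0 edited reads in ADARcd alone by selection. They had at most 2 in DDX41-ADARcd, too few for a call higher at their depths. A call lower was possible only at the 31 added positions listed for both libraries against empty. Of the 400 such positions tested over all genes, 6.5% were called lower. At an unadjusted p under 0.05 the counts were 0 of 235, 0 of 149 and 1 of 155 tested member positions. Over all tested positions they were 35 of 6412, 3 of 3512 and 79 of 9227. The empty library was shallow: at the median depths of ACTB, 3378 reads in ADARcd alone and 310 in empty, 40 edited reads (1.18%) are needed for an unadjusted p under 0.05. For PFN1 the level needed was 4.3%, for ACTG1 3.56%, for LCP1 12.9% and for MYH9 18.8%. For DDX41-ADARcd against empty, ACTB needed 30 edited reads at its median depths, and the most at any of its positions was 9.

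Most of the positions rested on a single edited read. In ADARcd alone 171 of 235 positions (72.8%, 66.6 to 78.4) had 1 edited read, 45 had 2 and 19 had 3 or more. In DDX41-ADARcd against empty 111 of 149 had 1 and 5 had 3 or more. Against ADARcd alone 101 of 124 had 1 and 0 had 3 or more. Over all listed positions of ADARcd alone, 74.8% had 1 edited read. The median level of the member positions was 0.105% in ADARcd alone, against 0.434% over all positions of that list. In DDX41-ADARcd it was 0.116% against 0.515%, and in the list against ADARcd alone 0.121% against 3.70%. A single read in a deep gene gives a low level, and the member positions were deep, with a median of 1252 reads in ADARcd alone against 286 over the list.

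**Figure D1:**
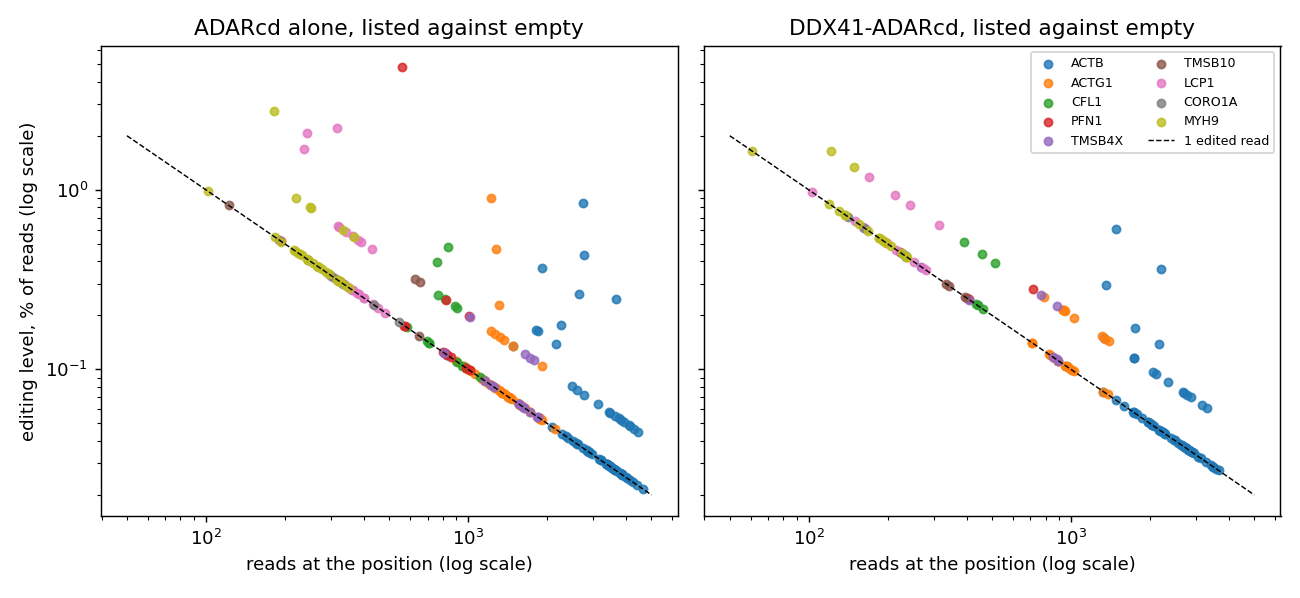
Editing level (percent, log scale) against reads at the position (log scale) for each listed position, ADARcd alone on the left and DDX41-ADARcd on the right, both listed against empty. The dashed line is the level that 1 edited read gives; most points lie on it, and PFN1 at 4.81% in ADARcd alone stands highest above it.

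ACTB held the most positions of the 9 genes in each list. It held 74 positions in ADARcd alone, 68 in DDX41-ADARcd against empty and 48 in DDX41-ADARcd against ADARcd alone, rank 2 of 1258 genes, 1 of 957 and 3 of 4036. Its positions had 834 to 4632 reads in ADARcd alone, with a median of 3378, and 62 to 603 in empty. By median reads ACTB was rank 4 of 414 genes with 5 or more positions in the first list. Levels ranged from 0.0216% to 0.84% in ADARcd alone (median 0.0353%) and from 0.0274% to 0.604% in DDX41-ADARcd (median 0.0462%). ACTG1 held 50, 24 and 19 positions, second of the 9 genes in the lists against empty and behind MYH9, with 21, in the list against ADARcd alone, with a median of 1347.5 reads and a median level of 0.076% in ADARcd alone.

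The best-supported ACTB position was coding base 1075, at 5527801 on chromosome 7. It had 23 edited of 2737 reads in ADARcd alone (0.84%, 0.533 to 1.26), 3 of 2170 in DDX41-ADARcd (0.138%, 0.0285 to 0.403) and 0 of 353 in empty, a floor of 0.85%. The 2 intervals of the edited libraries did not overlap, and the floor in empty lies just above the level in ADARcd alone. Between the edited libraries this was the 1 member position at an unadjusted p under 0.05 (p 0.000528, Fisher's exact test), with an adjusted p of 0.162 over 9227 tested positions. It passed when only positions with at least 2 edited reads were tested (adjusted p 0.0293) or only the 400 tested positions present in both lists against empty (adjusted p 0.00728, an alternative chosen after seeing the data). Over all alternatives its adjusted p ran from 0.00728 to 1. Against empty its p in ADARcd alone was 0.101.

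The adjacent A, coding base 1076 at 5527800, belongs to the same codon and did not show that gap. It had 12 edited of 2774 reads in ADARcd alone (0.433%, 0.224 to 0.754), 8 of 2197 in DDX41-ADARcd (0.364%, 0.157 to 0.716) and 0 of 356 in empty. The levels in the edited libraries differed by less than counting error (exact p 0.823). Coding base 713, at 5528370, had 9 of 3669 reads (0.245%, 0.112 to 0.465), 2 of 2664 (0.0751%, 0.00909 to 0.271) and 0 of 297 in the same order, with overlapping intervals (exact p 0.134).

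In the ACTB 3′ UTR the position at 5527224 was higher in the fusion by count, 9 of 1491 reads (0.604%, 0.276 to 1.14) in DDX41-ADARcd against 7 of 1907 (0.367%, 0.148 to 0.755) in ADARcd alone and 0 of 300 in empty, but within counting error (exact p 0.326). Position 5527610 had 4 of 1358 reads in DDX41-ADARcd and 3 of 1842 in ADARcd alone, and 5527244 had 3 of 1761 and 4 of 2257. The positions 5527597 and 5527613 had 3 edited reads each in ADARcd alone and 1 and 2 in DDX41-ADARcd. These 3′ UTR positions did not separate the libraries. By contrast 5527430 had 7 of 2654 reads in ADARcd alone (0.264%, 0.106 to 0.543) and was not listed for DDX41-ADARcd. Such an absence is not a measured 0, because the lists give no DDX41-ADARcd reads at an unlisted position.

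**Figure D2:**
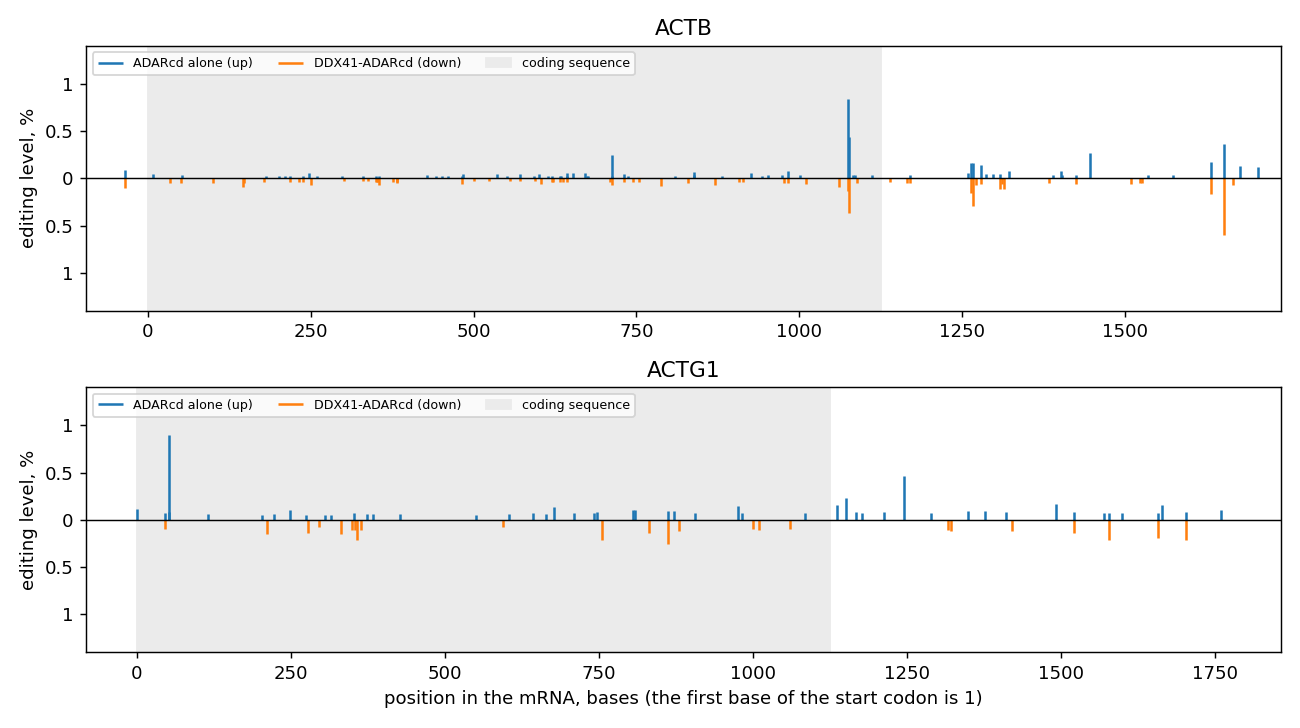
Editing level (percent) at each listed position of ACTB (top) and ACTG1 (bottom) along the mRNA, in bases with the first base of the start codon as 1; ADARcd alone points up, DDX41-ADARcd down, and the coding sequence is shaded. In ACTB the pair at 1075 and 1076 and the 3′ UTR position at 1652 stand out, and in ACTG1 the position at 53 reaches 0.897% in ADARcd alone with no bar for the fusion.

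ACTG1 had its strongest position near the start of the coding sequence. Coding base 53, at 81512302 on chromosome 17, had 11 of 1226 reads edited in ADARcd alone (0.897%, 0.449 to 1.6) and 0 of 141 in empty, a floor of 2.13%. The 3′ UTR positions 81510573 and 81510667 had 6 of 1278 reads (0.469%, 0.172 to 1.02) and 3 of 1315 (0.228%, 0.0471 to 0.665). None of these was listed for DDX41-ADARcd. The highest ACTG1 position of the fusion against empty was 81511048, coding, with 2 of 790 reads (0.253%, 0.0307 to 0.911), against 1 of 1024 in ADARcd alone. Against ADARcd alone it was 81510115 in the 3′ UTR, with 2 of 934 reads against 0 of 1258.

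The coding sequences of ACTB and ACTG1 are much alike, which bears on the values given for their coding positions. These sequences have 1125 bases each and are identical at 1027 (91.3%). The UTRs of the actin genes were not compared. GENCODE 29 also holds 56 pseudogenes named after these 9 genes, and 0 listed positions carried such a name. How the authors assigned reads that match several of these places is not stated, so ACTB and ACTG1 levels are uncertain to that extent. Of 53 coding positions of ACTB in ADARcd alone, 8 (15.1%) fell on the same aligned base as an ACTG1 position, which is 26.7% of the 30 of ACTG1. In DDX41-ADARcd 5 did, 10.2% of 49 and 29.4% of 17. Of all coding A, 22.6% in ACTB and 12.6% in ACTG1 were listed for ADARcd alone, and 20.9% and 7.14% for DDX41-ADARcd. The 15.1% and 10.2% of ACTB thus stand beside 12.6% and 7.14% of ACTG1 coding A. The 26.7% and 29.4% of ACTG1 stand beside 22.6% and 20.9% of ACTB coding A. Whether the overlaps exceed these shares by more than counting error was not tested.
The window around ACTB coding base 1075 and its counterpart in ACTG1 share 20 of 21 bases, and only the ACTB base was listed.
ACTB, chr7:5527791-5527811: gtggatcagcAagcaggagta
ACTG1, same coding bases: gtggattagcAagcaggagta
The counterparts of ACTB coding bases 713 and 1076 were not listed either. The counterpart of ACTG1 coding base 53, ACTB position 5529605, was listed for ADARcd alone with 1 edited read of 2616, against 11 of 1226 in ACTG1. The windows there share 17 of 21 bases.

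Among the monomer-binding proteins PFN1 carried the highest level of any member. Position 4946639 on chromosome 17, coding base 314, had 27 of 561 reads edited in ADARcd alone (4.81%, 3.20 to 6.93) and 0 of 51 in empty, a floor of 5.88% (exact p 0.155, adjusted p 1). It was not listed for DDX41-ADARcd. The other 12 PFN1 positions of ADARcd alone had 1 or 2 edited reads. Of the 13, 12 lay in the coding sequence of the transcript used for coding bases, and 1 is coding only in another transcript of the gene. The fusion had 3 PFN1 positions, the best at 4945865 in the 3′ UTR with 2 of 714 reads (0.28%, 0.0339 to 1.01), against 0 of 914 in ADARcd alone and 0 of 115 in empty.

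The thymosins had no position above 2 edited reads. TMSB4X had 16 positions in ADARcd alone with a median of 1595 reads and a median level of 0.0807%. It had 7 in DDX41-ADARcd against empty and 5 against ADARcd alone. Its best position in ADARcd alone was 12976840 in the 3′ UTR, on chromosome X, with 2 of 1019 reads, against 0 of 63 in empty. Both libraries had edited reads at 12976786, 2 of 1719 in ADARcd alone and 2 of 885 in DDX41-ADARcd. At 12976963 in the 3′ UTR the counts were 1 of 1226 and 2 of 766. Against ADARcd alone the top position, 12977091 in the 3′ UTR, had 1 of 269 reads.
TMSB10, with 4 positions in each list, had 2 of 627 reads at its best position in ADARcd alone (84906472, chromosome 2). In DDX41-ADARcd it had 1 edited read at each, from 222 to 395 reads, the highest level being 1 of 222 in the 5′ UTR at 84906004. The TMSB10 positions of ADARcd alone and of the fusion did not coincide.

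CFL1, the filament-severing factor, had 14, 6 and 5 positions. The best in ADARcd alone were coding base 137 at 65856109 on chromosome 11, with 4 of 835 reads (0.479%, 0.131 to 1.22) and 0 of 80 in empty, and coding base 362 at 65855680, with 3 of 759 and 0 of 70. The fusion was not listed at either. Its own best position, 65856220, had 2 of 391 reads (0.512%, 0.062 to 1.84), against 0 of 463 in ADARcd alone and 0 of 40 in empty.

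Among the filament-binding proteins LCP1 had positions where ADARcd alone showed at least 3 edited reads, and 2 of these are given. On chromosome 13, 46152821 (coding base 698) had 7 of 316 reads (2.22%, 0.895 to 4.51) and 0 of 20 in empty. In the 3′ UTR, 46126647 had 4 of 236 (1.69%, 0.464 to 4.28) and 0 of 27 in empty. Floors in empty were 15% and 11.1%, so levels of this size in empty could not be seen. The fusion's 13 LCP1 positions had 1 or 2 edited reads, the best being 46126831 in the 3′ UTR with 2 of 170 (1.18%, 0.143 to 4.19), against 0 of 283 in ADARcd alone.

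MYH9 had 30 positions in ADARcd alone, 27 of them coding, with a median of 261 reads. One exceeded 2 edited reads, 36281781 in the 3′ UTR on chromosome 22, with 5 of 182 (2.75%, 0.898 to 6.29) and 0 of 12 in empty. In DDX41-ADARcd the best was 36326623, coding, with 2 of 122 reads (1.64%, 0.199 to 5.80), against 0 of 205 in ADARcd alone and 0 of 10 in empty.
CORO1A had 1 edited read at each of its 7, 5 and 6 positions. The highest levels were 1 of 245 reads at 30186682 on chromosome 16 in ADARcd alone, 1 of 141 at 30187151 in the fusion against empty, and 1 of 140 at 30187979 against ADARcd alone.

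The 2 edited libraries shared 31 member positions against empty: 21 in ACTB, 5 in ACTG1, 2 each in TMSB4X and MYH9 and 1 in CFL1. That is 20.8% of the member positions of DDX41-ADARcd and 13.2% of those of ADARcd alone. Over all listed positions the shares were 11.4% and 6.27%. ACTB, with 21 of the 31, had shares of 30.9% and 28.4%. In ACTG1 they were 20.8% and 10.0%, in TMSB4X 28.6% and 12.5%, in CFL1 16.7% and 7.14%, and in MYH9 10.5% and 6.67%. The member positions were also deeper, with a median of 1252 reads in ADARcd alone against 286 over its list. What depth adds to these shares was not tested. Both lists use the same empty library and were selected on 0 edited reads in it. PFN1, TMSB10, LCP1 and CORO1A shared none.

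At these shared positions ADARcd alone had a median level of 0.0816% and DDX41-ADARcd one of 0.115%. DDX41-ADARcd was higher at 20 and lower at 11. At 10 of them each library had 1 edited read, and the fusion had fewer reads, which by itself gives the higher level there. A further 13 positions had at most 2 edited reads in either library, 6 in ACTB, 3 in ACTG1, 2 in TMSB4X and 1 each in CFL1 and MYH9. Their levels ran from 0.0242% to 0.794% in ADARcd alone and from 0.0286% to 0.485% in DDX41-ADARcd, with exact p from 0.563 up. Of the 31, 1 (3.23%) had an unadjusted p under 0.05 and 0 were called, against 10.0% and 6.5% of the 400 tested positions that both lists hold.

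The positions best supported in ADARcd alone were all in ACTB among those shared. At the 8 where ADARcd alone had at least 3 edited reads, the median level was 0.211% there and 0.16% in DDX41-ADARcd, with 6 lower and 2 higher in the fusion. Choosing positions by a high count in ADARcd alone itself favours a lower level in the fusion. At the 8 chosen by 2 or more edited reads in each library, 5 were lower and 3 higher in the fusion, with a median difference of -0.0113 percentage points. This is not a separate set: it is the same ACTB positions without 5527597 and with TMSB4X 12976786 added. Over all genes, 130 shared positions had at least 3 edited reads in ADARcd alone, with medians of 2.99% and 0.702%, and 110 of them were lower in the fusion. The difference between the ACTB positions and the rest was not tested.

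**Figure D3:**
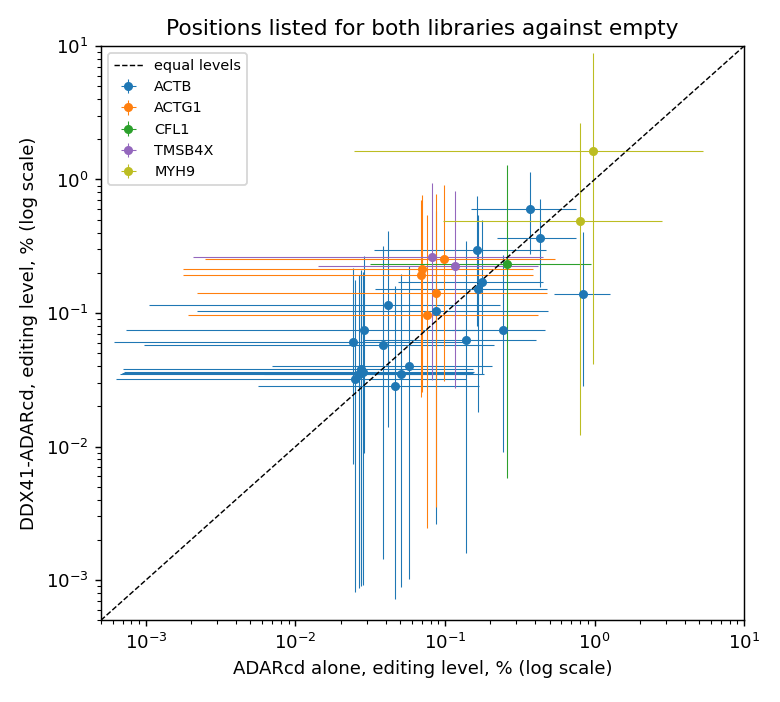
Editing level (percent, log scales) in DDX41-ADARcd against ADARcd alone at the 31 positions listed for both against empty, with exact 95% intervals; the dashed line marks equal levels. The 2 intervals overlap at all of them but 1, the ACTB point at 0.84% and 0.138%, which lies farthest below the line.

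Reads with C or T at the listed A were counted beside the edited ones, because the lists were selected on G reads and not on these. In ADARcd alone the member positions had 407 edited reads in 369671 (0.11%) and 371 reads with neither A nor G (0.1%, 0.0904 to 0.111). Of the latter 269 had C and 100 had T, and the few left had no base counted. In empty the other mismatches stood at 0.0865% (0.0588 to 0.123) at the same positions. Over all listed positions of ADARcd alone the edited reads were 0.377% and the others 0.0987%. In DDX41-ADARcd against empty the members had 0.0999% edited and 0.0931% other (0.0803 to 0.107), against 0.26% and 0.122% over all positions. In DDX41-ADARcd against ADARcd alone they had 0.0969% and 0.0745% (0.0614 to 0.0895), against 0.76% and 0.138%. In both lists against empty the edited share of the members lay inside the interval of the other mismatches, although each position was listed for an edited read. The edited reads are of G only, and the other mismatches add up C and T.

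The genes differed in this. In ACTB the edited reads (0.0644%) were fewer than the others, C and T together (0.0879%, 0.0763 to 0.101), in ADARcd alone. In DDX41-ADARcd they were 0.0627% against 0.0952%. By base ACTB had 151 reads with G, 142 with C and 63 with T in ADARcd alone, and 102, 112 and 43 in DDX41-ADARcd. In ACTG1 they were 0.105% against 0.0548% (0.0388 to 0.0752), in LCP1 0.493% against 0.0944% (0.0432 to 0.179) and in MYH9 0.493% against 0.177% (0.0968 to 0.297). CFL1 went the other way, with 0.198% edited and 0.585% other (0.455 to 0.741). At its 3′ UTR position 65855183, 33 of 817 reads had C and 2 had G, and empty had 4 other mismatches in 56 reads. PFN1 had 0.417% edited and 0.254% other, with 16 reads of C and 2 of G among 1011 at position 4946793. These 2 positions were chosen after their counts of C were seen.

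The positions with 3 or more edited reads split along the same line. Of the 19, 10 had 0 or 1 read with another mismatch, among them PFN1 4946639 (27 edited, 1 other), ACTG1 81512302 (11 and 1), LCP1 46152821 (7 and 1), and ACTB 5527430 (7 and 0). None of these 10 was listed for DDX41-ADARcd. The other 9 had 2 or more, 8 of them in ACTB, and those 8 were the ones listed for DDX41-ADARcd. These 8 had 1812 to 3669 reads in ADARcd alone, and the 10 had 182 to 2654, with at most 1278 outside ACTB. The mismatch counts are not scaled by depth, and how far depth accounts for this split was not tested. ACTB 5527244 had 4 edited and 11 other mismatches, 5527610 had 3 and 13, and 5527224 had 7 and 9. ACTB 5527801, where the libraries differed most, had 23 and 2. Edited reads exceeded all other mismatches at 14 of the 19. Whether the shared ACTB positions carry editing or read error was not tested.

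**Figure D4:**
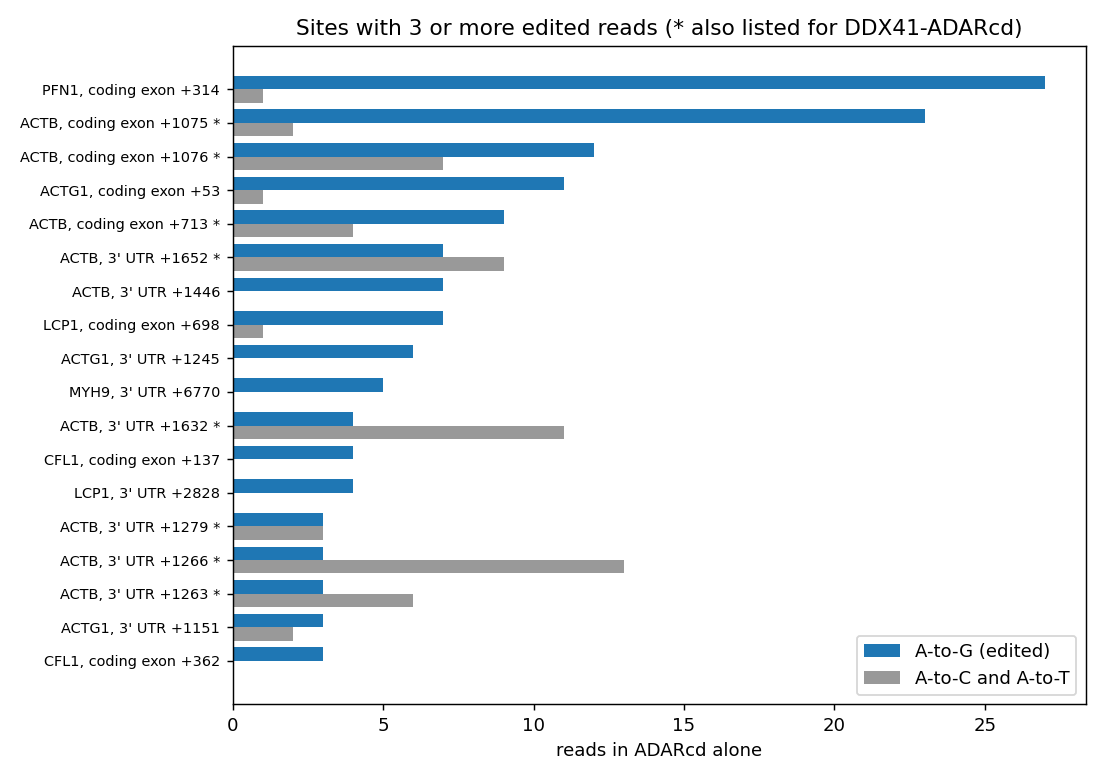
Reads of ADARcd alone with G (edited) and with C or T (other) at 18 of the 19 positions with 3 or more edited reads, labelled by gene, region and base from the start codon; an asterisk marks those also listed for DDX41-ADARcd. The asterisks fall on 8 ACTB positions, and 4 of these have more other mismatches than edited reads.

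The neighbours of the A were counted by number of edited reads. ADAR enzymes are known to favour A or U before the edited A and G after it, and to avoid G before it. The context counted here was A or T before the edited A and G after it, on the transcript strand. Of 4891 A in the 9 mRNAs 12.1% sit in that context. Among the member positions of ADARcd alone with 1 edited read 9.94% did (5.9 to 15.4), among the 45 with 2 it was 8.89% (2.48 to 21.2), and among the 19 with 3 or more 47.4% (24.4 to 71.1). For DDX41-ADARcd against empty the shares were 17.1% (10.6 to 25.4) with 1 edited read, 9.09% (1.92 to 24.3) with 2, and 2 of 5 with 3 or more. The contrast was thus seen in ADARcd alone, and 5 positions are too few to show one in the fusion. Over all listed positions on a transcript 1202 of 6006 did, and 36.8% of those with 3 or more edited reads. G stood before the A in 15.8% of the 19 (3.38 to 39.6), in 37.4% of those with 1 edited read and in 32.4% of all A in these mRNAs. In the fusion it stood before 41.4% of those with 1 edited read and 2 of the 5 with 3 or more. In 8 of the 19 the trinucleotide was AAG, as in PFN1 4946639, ACTB 5528370, ACTG1 81510573 and LCP1 46152821 above. The ACTB positions 5527224, 5527597 and 5527610 are the 3 with G before.

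All positions lay in exons of the mature mRNA. In ADARcd alone 165 of 235 (70.2%, 63.9 to 76.0) were coding in a transcript of the gene, 68 (28.9%) in the 3′ UTR, 2 in the 5′ UTR and 0 in introns, and over all positions 69.0% were coding and 20.5% in the 3′ UTR. In DDX41-ADARcd against empty 69.8% of the member positions were coding and 28.9% in the 3′ UTR. The share of coding A, in 1 transcript per gene, that was listed for ADARcd alone was 22.6% in ACTB, 18.5% in TMSB4X, 12.9% in PFN1, 12.6% in ACTG1, 5.51% in CFL1, 3.0% in LCP1, 2.25% in CORO1A, 2.04% in TMSB10 and 1.73% in MYH9. For DDX41-ADARcd it was 20.9% in ACTB, 7.14% in ACTG1, 7.41% in TMSB4X, 1.09% in MYH9, 1.08% in PFN1 and 0 of 49 A in TMSB10. In ADARcd alone ACTB and TMSB4X, the genes with the deepest positions, had the largest shares, and MYH9, with the shallowest, had the smallest. The genes between did not all follow depth. PFN1 (median 814 reads) had a larger share than CFL1 (826 reads) and ACTG1 (1347.5 reads). TMSB10 (638.5 reads), with 1 of 49 coding A, had a smaller share than LCP1 (349 reads) and CORO1A (313 reads). In the fusion the counts were 1 of 93 coding A in PFN1, 0 of 49 in TMSB10 and 17 of 1561 in MYH9. The positions of PFN1 and TMSB10 were deeper, but their counts are too small to rank their shares against that of MYH9. A deeper position has more chances to show 1 edited read, and how far depth accounts for these shares was not tested.

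Reads at the listed positions also give a rough ratio between libraries, with no correction for library size. DDX41-ADARcd over ADARcd alone had a median of 0.659 over 527 genes with 5 or more positions (5th to 95th percentile 0.488 to 0.876). ACTB stood at 0.771 (range 0.686 to 0.84 over 48 positions) and ACTG1 at 0.73. CORO1A had 0.69, MYH9 0.674, PFN1 0.658, TMSB4X 0.599, LCP1 0.591, CFL1 0.563 and TMSB10 0.561. All 9 were within the central range of genes. The reads of a bulk library do not separate less RNA per cell from fewer cells or fewer reads in all.

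Against empty TMSB10 had the lowest ratio of the 9 genes in both edited libraries. ADARcd alone over empty had a median of 8.95 over 414 genes (5.3 to 17.2), with TMSB10 at 6.23 and MYH9 and CORO1A at 15.5 each. DDX41-ADARcd over empty had a median of 6.13 over 220 genes (3.7 to 12.4), with TMSB10 at 3.21 (3.04 to 3.66 over 4 positions), TMSB4X at 4.61, ACTB at 7.26 and ACTG1 at 11.1. TMSB10, below the 5th percentile here, has fewer than 5 positions and is not among the 220.

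**Figure D5:**
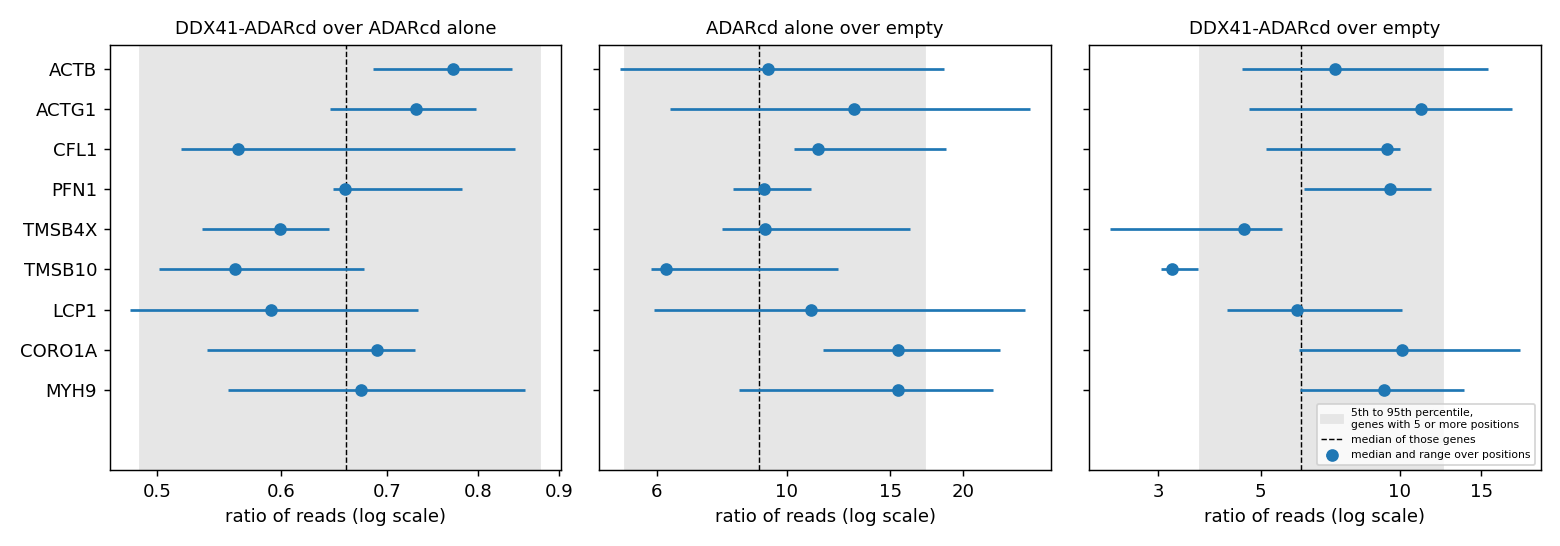
Ratio of reads between libraries (log scale) at listed positions of each gene: points are medians and lines ranges over positions, the dashed line is the median over genes with 5 or more positions and the grey band their 5th to 95th percentile. All 9 medians lie within the band for DDX41-ADARcd over ADARcd alone, and TMSB10 lies below it for DDX41-ADARcd over empty.

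A wider list of 70 actin cytoskeleton genes, Arp2/3, capping, tropomyosin, myosin light chain, filamin and ERM genes among them, had no called position either. Of these 33 were listed for ADARcd alone with 234 positions, 33 for DDX41-ADARcd against empty with 119, and 50 for DDX41-ADARcd against ADARcd alone with 187. In each comparison 0 were called and 0 had an unadjusted p under 0.05. At least 3 edited reads were present at 4 positions of ADARcd alone and at 0 in either DDX41-ADARcd list. A call higher in the fusion was therefore scarcely possible. A call lower was possible only at the added positions listed for both libraries against empty. The absence of calls thus says little about these genes. Over all tested positions 0.203% and 0.0% were called against empty, and 0.282% against ADARcd alone, all lower. At an unadjusted p under 0.05 there were 35 of 6412, 3 of 3512 and 79 of 9227. The positions of the 70 genes had medians of 241.5, 152 and 99 reads in the first library. Of them 80.3%, 84.0% and 87.7% had 1 edited read. A total of 17 genes were in no list. In ADARcd alone most positions were in MSN (31), the membrane linker moesin, TPM3 (18), a tropomyosin, ACTR2 (17), an Arp2/3 subunit, CAPZA1 (14), a capping protein, and TAGLN2 (11). CAPZA1 had up to 5 edited reads, at 2.54% of 197. In DDX41-ADARcd against empty they were in MSN, TPM3, ACTR2, COTL1 and ARPC3, with at most 2 edited reads. Against ADARcd alone they were in TLN1, MSN, ACTR2, TPM3 and ACTN1.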

How the data were processed

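Values were taken from 3 lists of A-to-G positions from 3 HyperTRIBE libraries. Per the file headers, the deposited values are raw counts of reads with each base in 2 libraries, with no normalization. Per the submitters' processing notes, STAR 2.5, CASAVA 1.4 and FastQC 0.11.7 were used, in roles not stated, and the build was mm10, of the mouse. The listed coordinates were tested against GENCODE 29 and lie on GRCh38. The site caller, its filters and the handling of reads with several matches are not stated. Columns carry no library name, so the order of the 2 names in each title decided which was the edited library and which its control. DDX41-ADARcd reads were equal between lists at 118 of 118 shared member positions.

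The strand was that of the dominant control base, and every member position was on its gene's strand. Positions with 10 or more reads in both libraries entered the Fisher's exact test (scipy 1.17.1), adjusted over the whole list. For DDX41-ADARcd against ADARcd alone, positions listed for both against empty were added, since the deposited list holds only those with 0 edited reads in ADARcd alone. The test was tried on simulated data. Each control was selected for 0 edited reads, which the test ignores and which favours small p-values. Sequences came from GENCODE transcripts. The position excepted below is not reported here and is left out of the plot of edited and other bases, but stays in all counts.

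The positions named were the best of each gene and list, those with 3 or more edited reads except 1, and those listed for both libraries with 2 or more. The members and lists were chosen with earlier results of these data known.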

Additional observations from a re-analysis of the deposited data

How the results depend on the processing

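Requiring at least 2 edited reads left 64, 38 and 23 member positions of 235, 149 and 124 (ADARcd alone against empty, DDX41-ADARcd against empty, DDX41-ADARcd against ADARcd alone), and at least 3 left 19, 5 and 0. Median levels rose by construction to 0.226% and 0.433% in the first list and 0.212% and 0.295% in the second. No median exists for 0 positions. The 31 positions listed for both libraries became 8 with 2 or more edited reads in each, 8 with 3 or more in ADARcd alone and 59 within 5 bases. Calls against ADARcd alone went from 0 to 1, ACTB 5527801, with at least 2 edited reads, and to 1 over the 400 positions tested and listed for both; fewer positions enter the adjustment in both. The other alternatives for calls (20 reads or no minimum, Bonferroni adjustment, reads halved) gave 0 in all 3 comparisons. The read ratio of member positions, 0.716, was 0.737 at positions listed for both libraries and 0.739 from summed reads. Other mismatches went from 0.1% to 0.075% in ADARcd alone and from 0.0931% to 0.0784% in DDX41-ADARcd against empty at positions with 1 edited read; the cause was not tested. The read ratio kept its direction, but other results did not. DDX41-ADARcd was higher at 20 and lower at 11 of the 31 shared positions. With 2 or more edited reads in each it was higher at 3 and lower at 5. With 3 or more in ADARcd alone the counts were 2 and 6. At 1 edited read the edited share fell below the other mismatches in both lists against empty (0.0647% against 0.075%, 0.0731% against 0.0784%). Against ADARcd alone the edited share stayed above (0.0811% against 0.0707%). Depth in empty limits what can be called, and 1 library per group leaves no replicate to leave out. No paired analysis was possible because each group has 1 library.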

Other observations

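In ACTG1 the 3′ UTR positions of ADARcd alone had a median of 22.7 times the reads of empty (6.32 to 26.0 over 19 positions), and the coding positions 11.9 times (7.36 to 19.8 over 30). In ACTB the values were 8.94 (20 positions) and 9.85 (53 positions).

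Over 190 genes with 5 or more positions in each list, the nearest to ACTB in numbers of positions and median reads (Euclidean distance of log2 values in the 3 lists) were EEF1A1 (0.835), YBX1 (1.33) and CAP1 (1.4). The nearest to ACTG1 were COX1 (0.456), PTMA (1.01) and PPT1 (1.08). These distances are a description over 3 lists that share libraries.

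In CFL1, 4 positions of the 3′ UTR within the same short stretch carried most of the C reads of that gene in ADARcd alone: 33 of 817 at 65855183, 6 of 766 at 65855190, 7 of 712 at 65855192 and 9 of 708 at 65855196. Other mismatches in empty there were 4 of 56, 1 of 45, 2 of 38 and 1 of 40. These positions were chosen after their values were seen.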
